A study of Mus musculus with 6 samples.

Results

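MHC class I genes were examined in resting bone-marrow-derived macrophages (BMDMs) with and without CITED2, a nuclear cofactor that competes for the coactivators CBP and p300. The 10 genes, taken by symbol from the 22248 genes listed, were the classical heavy chains *H2-K1* and *H2-D1*, the nonclassical heavy chains *H2-Q4*, *H2-Q6*, *H2-Q7*, *H2-T22*, *H2-T23* and *H2-M3*, the light chain *B2m* and the transactivator *Nlrc5*. All 10 were found. RNAseq was made from 3 control libraries of *Lyz2cre* mice and 3 CITED2-deficient libraries of *Cited2fl/fl:Lyz2cre* mice, on a C57BL/6 background. All 6 libraries came from unstimulated BMDMs grown in M-CSF, and mice of both groups carried the Cre allele in the *Lyz2* locus, which is active in myeloid cells. The sample labels give an age of 10 weeks, and the methods of the study give a younger age. Levels are FPKM (fragments scaled by transcript length and by library depth), and differences are log2 fold changes of FPKM + 1, CITED2-deficient over control, from limma. The labels number the replicates and do not say whether each is a separate mouse, so p-values measure the spread between these libraries.

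A class I molecule is a heavy chain held together with β2-microglobulin around a short peptide, which is cut by the proteasome, carried into the endoplasmic reticulum by the TAP transporter and loaded there. Classical molecules show peptides to CD8+ T cells, whereas nonclassical molecules are less variable and are read by NK cells and by unconventional T cells. NLRC5, which has no DNA-binding domain of its own, joins the RFX complex, CREB or ATF1 and NFY on the SXY module of class I promoters, and interferons induce these genes through factors that include STAT2, IRF9 and IRF1.

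Promoter sequences are shown here since all 10 genes moved in the same direction. The 250 bases upstream of the RefSeq start (GRCm38.p6) were matched for 9 of the 10 genes, all but *Nlrc5*, and for *H2-K1* the first of 2 listed starts was used. Printed are a classical gene, the light chain, the genes with the largest and the smallest difference, and *H2-T23*. Capitals mark the letters of an interferon-stimulated response element (GAAA and GAAA, or GAA and GAAA, with 2 bases between), a GAS element (TTCNNNGAA), a kappa B site (GGG and TTCCC with 2 bases between), an X2 box (TGACGC) and a Y box (CCAAT), searched on both strands, so that TTTCACTTC is the shorter response element read on the other strand.
H2-K1 (chr17:34000348-34000597, - strand): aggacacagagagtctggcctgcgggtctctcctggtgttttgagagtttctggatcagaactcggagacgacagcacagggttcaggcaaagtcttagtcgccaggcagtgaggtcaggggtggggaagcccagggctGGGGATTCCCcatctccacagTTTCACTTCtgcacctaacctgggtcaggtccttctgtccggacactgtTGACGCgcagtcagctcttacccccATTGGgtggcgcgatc
B2m (chr2:122147437-122147686, + strand): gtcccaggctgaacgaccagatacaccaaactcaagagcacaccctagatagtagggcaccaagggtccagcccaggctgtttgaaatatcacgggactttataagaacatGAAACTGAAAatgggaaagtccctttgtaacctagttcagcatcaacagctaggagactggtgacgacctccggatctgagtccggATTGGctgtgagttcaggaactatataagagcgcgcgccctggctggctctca
H2-Q6 (chr17:35424600-35424849, + strand): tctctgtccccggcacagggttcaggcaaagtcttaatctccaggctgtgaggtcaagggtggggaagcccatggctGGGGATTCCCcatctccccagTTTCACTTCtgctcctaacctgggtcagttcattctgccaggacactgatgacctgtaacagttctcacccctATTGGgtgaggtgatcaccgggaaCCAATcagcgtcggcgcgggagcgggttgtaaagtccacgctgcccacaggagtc
H2-T23 (chr17:36032702-36032951, - strand): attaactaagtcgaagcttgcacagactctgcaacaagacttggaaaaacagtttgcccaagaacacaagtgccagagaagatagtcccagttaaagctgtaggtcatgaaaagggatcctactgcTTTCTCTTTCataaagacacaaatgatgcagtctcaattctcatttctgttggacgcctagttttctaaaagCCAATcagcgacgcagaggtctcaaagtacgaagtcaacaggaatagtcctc
H2-M3 (chr17:37269984-37270233, + strand): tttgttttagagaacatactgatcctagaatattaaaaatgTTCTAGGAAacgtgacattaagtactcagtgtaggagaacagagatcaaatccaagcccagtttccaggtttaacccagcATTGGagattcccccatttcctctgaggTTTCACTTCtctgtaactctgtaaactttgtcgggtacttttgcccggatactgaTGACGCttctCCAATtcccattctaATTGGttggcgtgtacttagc

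The kappa B letters were found in 5 of the 9 windows (*H2-K1*, *H2-D1*, *H2-Q4*, *H2-Q6* and *H2-Q7*), against 1.53% of 32851 RefSeq windows of this length. The longer response element was found in *B2m*, *H2-T22* and *H2-T23*, against 2.98% of all windows. The shorter one was found in the other 6, against 6.31% of all windows, but this spelling was added after the sequences had been read. No window held both spellings. The 5 kappa B windows, which also hold the shorter response element, share longer stretches of sequence, so they are not 5 independent occurrences. The X2 letters stood in *H2-K1*, *H2-D1* and *H2-M3* (6.12% of all windows) and the Y letters in all 9 (33.8%). Other spellings of the X2 box were not searched. The GAS letters stood only in *H2-M3* (7.02% of all windows). These are matches of letters, and binding was not measured.

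*Cited2*, the deleted gene, had a level of 71.7, 79.3 and 75.5 FPKM in control replicates 1 to 3 and 9.27, 7.22 and 7.53 FPKM in CITED2-deficient replicates 1 to 3, so each library matched its label. Depth recovered from the FPKM was 17289286 to 18952077 fragments in control libraries and 22583995 to 26100410 in CITED2-deficient libraries. Over all 11687 genes tested the median log2 fold change was -0.10. All 6 macrophage markers were above the FPKM filter (*Adgre1*, *Csf1r*, *Cd68*, *Itgam*, *Mertk* and *Fcgr1*). Their summed level was 5288 to 5344 FPKM in control and 4942 to 5040 FPKM in CITED2-deficient libraries. *Fcgr1* was higher and 4 of the 6 were lower past the threshold, against 16.7% higher and 34.6% lower of all genes tested.

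In CITED2-deficient BMDMs all 10 genes were higher, with limma adjusted p between 4.59e-10 and 2.3e-05 and a threshold of 0.05, whereas 16.7% of all genes tested were higher and 34.6% lower. After median-ratio scaling of the libraries, again with all 10 higher, these shares were 23.1% and 21.3%. For each of the 10, the lowest CITED2-deficient value exceeded the highest control value, which held for 19.0% of all genes tested, and the reverse for 40.9%. With a fold change of at least 2 on the log2(FPKM + 1) scale, 8 of the 10 remained, all but *H2-D1* and *H2-M3*, against 3.72% of all genes. The median of the 10 was 1.53. Replicates were close, with an SD of at most 6.42% of the mean in controls and 7.84% in CITED2-deficient BMDMs. In bulk RNA, a change in the number of expressing cells and a change in RNA per cell cannot be told apart.

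**Figure D1:**
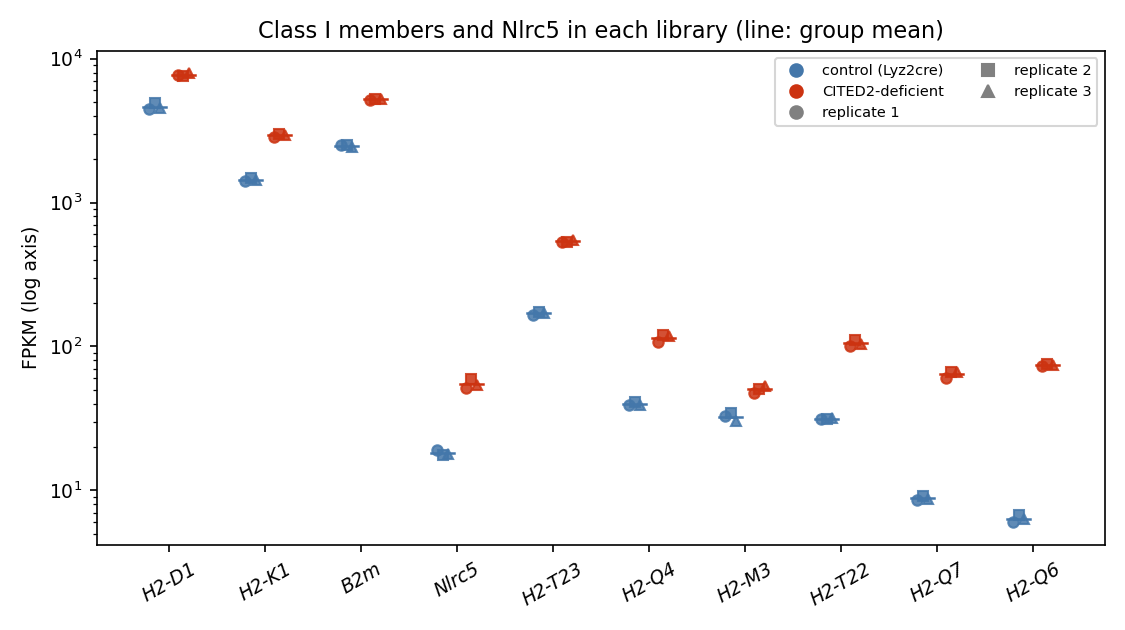
FPKM of the 10 genes in each library on a log axis, with control libraries in blue, CITED2-deficient libraries in red, a symbol for each replicate and a line at the group mean. The groups are apart for all 10 genes, and the span of levels runs from *H2-D1* (4636 FPKM in controls) to *H2-Q6* (6.38 FPKM in controls).

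*H2-K1* (ENSMUSG00000061232, chromosome 17, 33996017 to 34000347, mm10) encodes the classical K heavy chain. Its level was 1404, 1475 and 1429 FPKM in control replicates 1 to 3 and 2849, 2973 and 2967 FPKM in CITED2-deficient replicates 1 to 3. The groups did not overlap, and their means differed 2.04-fold. The log2 fold change was 1.03 (standard error, SE, 0.03, 95% interval 0.96 to 1.09, limma adjusted p = 1.06e-08). *H2-D1* (ENSMUSG00000073411, chromosome 17, 35262730 to 35267499), the classical D heavy chain, was the most abundant of the 10 genes. It stood at 4447, 4908 and 4552 FPKM in controls and at 7736, 7546 and 7910 FPKM in CITED2-deficient libraries. Its groups were apart, with a log2 fold change of 0.74 (SE 0.04, 95% interval 0.65 to 0.83, limma adjusted p = 6e-07). The ratio of *H2-K1* to *H2-D1* FPKM was 0.316, 0.301 and 0.314 in controls and 0.368, 0.394 and 0.375 in CITED2-deficient libraries, a shift toward *H2-K1* in every library.

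*B2m* (ENSMUSG00000060802, chromosome 2, 122147686 to 122153083), the light chain shared by these heavy chains, had a level of 2502, 2510 and 2441 FPKM in controls. In CITED2-deficient libraries it had 5185, 5271 and 5237 FPKM. Replicates of a group spanned a narrow range beside this gap, and the log2 fold change was 1.07 (SE 0.02, 95% interval 1.02 to 1.13, limma adjusted p = 2.29e-09). The 95% intervals of *B2m* and *H2-K1* overlapped. The summed FPKM of the 8 heavy chains was 2.56 ± 0.105 times that of *B2m* in controls and 2.22 ± 0.0414 times in CITED2-deficient BMDMs (SD, n = 3 each), with groups that did not overlap.

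*Nlrc5* (ENSMUSG00000074151, chromosome 8, 94434356 to 94527272) encodes the class I transactivator. Its level was 19.0, 17.7 and 17.8 FPKM in controls and 51.4, 59.9 and 54.3 FPKM in CITED2-deficient libraries. CITED2-deficient replicate 2 was highest, and the group means differed 3.03-fold. The log2 fold change was 1.55 (SE 0.06, 95% interval 1.41 to 1.68, limma adjusted p = 7.1e-08). These levels rest on 852 to 998 recovered fragments a library in controls and on 3628 to 3935 in CITED2-deficient libraries. None of the 50-base windows of the *Nlrc5* or *B2m* transcript occurred in a transcript of another gene of GENCODE vM21.

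*H2-Q6* and *H2-Q7* belong to the Qa-2 genes, which encode nonclassical molecules found on the surface and in secreted form. *H2-Q6* (ENSMUSG00000073409, chromosome 17, 35424850 to 35430055) was lowest of the 10 in controls, with 6.01, 6.75 and 6.37 FPKM, and had 72.8, 75.2 and 73.9 FPKM in CITED2-deficient libraries. That is 174, 179 and 185 fragments against 2836, 2602 and 2957. The means differed 11.6-fold, and the log2 fold change of 3.35 (SE 0.05, 95% interval 3.23 to 3.46, limma adjusted p = 4.59e-10) had rank 17 among all genes tested. *H2-Q7* (ENSMUSG00000060550, chromosome 17, 35439155 to 35443773) had 8.55, 9.12 and 8.73 FPKM in controls. It had 60.9, 66.7 and 66.3 FPKM in CITED2-deficient libraries. The means differed 7.34-fold, with a log2 fold change of 2.74 (SE 0.05, 95% interval 2.62 to 2.86, limma adjusted p = 1.08e-09). The intervals of these 2 genes lay above those of the other 8 and did not overlap each other. The pair share sequence with relatives. For *H2-Q6* 32.0% of its 50-base transcript windows, and for *H2-Q7* 34.9%, also occur in a transcript of another gene, so fragments could have been divided between neighbors.

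*H2-Q4* (ENSMUSG00000035929, chromosome 17, 35379617 to 35385290) lies upstream of both. It had 39.1, 41.3 and 39.3 FPKM in controls and 107, 119 and 118 FPKM in CITED2-deficient libraries. Its groups were far apart, with a log2 fold change of 1.50 (SE 0.05, limma adjusted p = 1.97e-08). Of its transcript windows 24.3% were shared with other genes.

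*H2-T23* (ENSMUSG00000067212, chromosome 17, 36029773 to 36032855) encodes Qa-1, which shows a leader peptide of other class I heavy chains to the CD94 and NKG2A receptor of NK cells. It was the most abundant nonclassical gene, with 166, 175 and 172 FPKM in controls and 532, 536 and 545 FPKM in CITED2-deficient libraries. The means differed 3.15-fold, and the log2 fold change was 1.65 (SE 0.03, 95% interval 1.58 to 1.71, limma adjusted p = 8.28e-10). *H2-T22* (ENSMUSG00000056116, chromosome 17, 36037128 to 36042747), whose product is bound by some γδ T cells, stood at 31.5, 31.6 and 31.6 FPKM in controls. It stood at 101, 111 and 103 FPKM in CITED2-deficient libraries. Its log2 fold change of 1.71 (SE 0.04, 95% interval 1.61 to 1.80, limma adjusted p = 3.22e-09) overlapped in interval with that of *H2-T23*. Of the *H2-T22* windows 44.7% were shared with any other gene, the largest share of the 10, and 37.9% with *H2-T10*. Of the *H2-T23* windows 28.8% were shared with any other gene.

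*H2-M3* (ENSMUSG00000016206, chromosome 17, 37270220 to 37274484) encodes the molecule that shows N-formylated bacterial peptides. It had 32.9, 34.3 and 30.2 FPKM in controls and 47.8, 50.8 and 53.0 FPKM in CITED2-deficient libraries, so its groups were also apart. The log2 fold change of 0.62 (SE 0.06, 95% interval 0.49 to 0.75, limma adjusted p = 2.3e-05) was the smallest of the 10. Its interval overlapped that of *H2-D1* only. Its windows were nearly unique to it (0.576% shared).

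**Figure D2:**
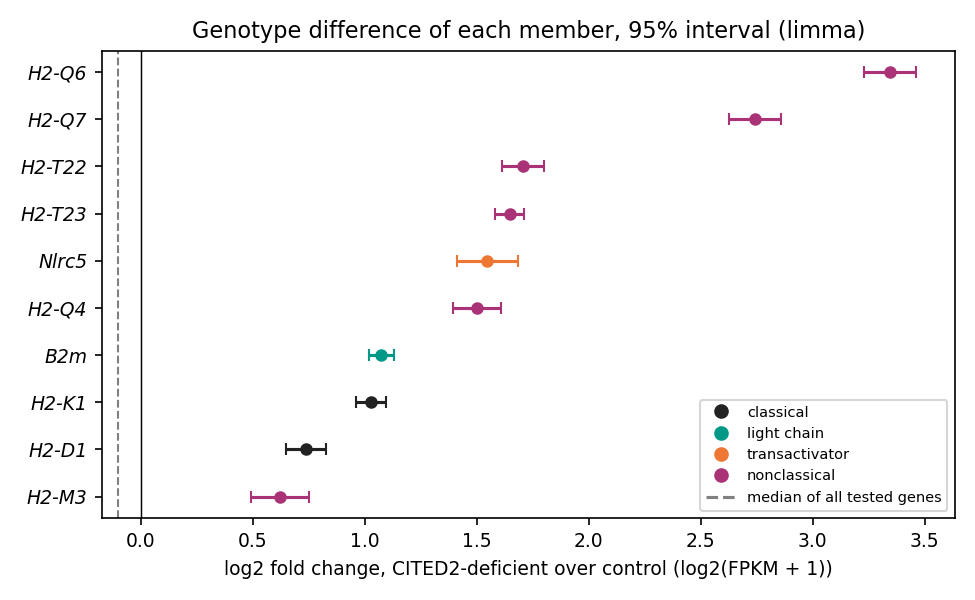
Log2 fold change of each gene with its 95% interval from limma, colored by role, with a dashed line at the median of all tested genes (-0.10). The values run from 0.62 for *H2-M3* to 3.35 for *H2-Q6*, and 5 of the 6 nonclassical genes lie to the right of both classical genes.

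Classical and nonclassical genes were then set side by side. The mean log2 fold change was 0.88 for the 2 classical and 1.93 for the 6 nonclassical genes, a difference of -1.04. Without *H2-Q6* and *H2-Q7* the difference was -0.49, an alternative chosen after the values were seen. The split by class was not complete, since *H2-M3* lay below both classical genes. Summed classical FPKM was 6072 ± 277 in controls and 10660 ± 191 in CITED2-deficient BMDMs, a ratio of 1.76, and summed nonclassical FPKM was 290.0 ± 7.25 and 947 ± 21.5, a ratio of 3.27 (SD, n = 3 each). The 6 nonclassical genes made up 4.63%, 4.46% and 4.60% of the summed heavy chain FPKM in control libraries. In CITED2-deficient libraries they made up 8.01%, 8.36% and 8.11%. The share was thus higher in every CITED2-deficient library, while classical chains still held most of the total. These sums left out other expressed class I genes, such as *H2-T24* and *H2-Q5*. No test was run on the sums. Of the 50-base transcript windows, 8.79% for *H2-K1* and 14.3% for *H2-D1* were also shared with other genes. Fragments of these abundant genes could have been counted for nonclassical genes, which was not tested.

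In controls the levels fell in the order *H2-D1*, *B2m*, *H2-K1*, *H2-T23*, *H2-Q4*, *H2-M3*, *H2-T22*, *Nlrc5*, *H2-Q7* and *H2-Q6*, in FPKM, and only *H2-M3* and *H2-T22* overlapped between neighbors. In CITED2-deficient BMDMs the first 5 places were the same, followed by *H2-T22*, *H2-Q6*, *H2-Q7*, *Nlrc5* and *H2-M3*. There *H2-Q4* overlapped with *H2-T22*, and *Nlrc5* with *H2-M3*.

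Each gene was also read relative to *B2m* in the same library, which removes any scaling of whole libraries. The log2 ratio to *B2m* was higher in CITED2-deficient libraries by 2.46 for *H2-Q6*, 1.80 for *H2-Q7*, 0.66 for *H2-T22*, 0.58 for *H2-T23*, 0.53 for *Nlrc5* and 0.45 for *H2-Q4*. For these 6 genes the groups did not overlap, which held in this direction for 3.11% of all other genes tested. It fell by 0.34 for *H2-D1* and by 0.44 for *H2-M3*, again with groups apart, as it did for 91.4% of all other genes tested, since *B2m* itself was higher. For *H2-K1* the ratio was -0.83, -0.77 and -0.77 in controls and -0.86, -0.83 and -0.82 in CITED2-deficient libraries, and the groups overlapped. With 3 against 3 libraries the exact two-sided permutation p cannot fall below 0.1. It was 0.1 for the other 8 ratios and 0.3 for *H2-K1*, so none of the 9 could pass.

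**Figure D3:**
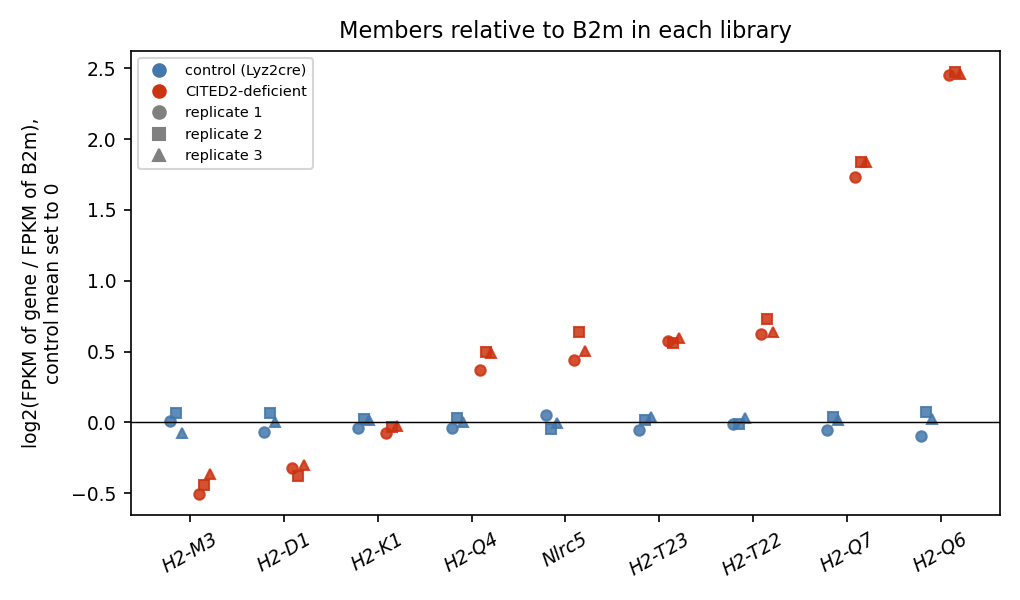
Log2 ratio of each gene's FPKM to that of *B2m* in each library, with the control mean of each gene set to 0, control libraries in blue and CITED2-deficient libraries in red. The 2 groups overlap for *H2-K1* only, although its CITED2-deficient values also lie below 0. Among the genes with groups apart, 2 lie below 0 in CITED2-deficient libraries and 6 above.

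Genes that cut and load class I peptides were higher as well. Of the 13 listed, all were tested, 12 were higher and 0 lower past the threshold in limma (0 lower also at an unadjusted p under 0.05 and in limma-voom), with a median log2 fold change of 0.75. Over all genes tested 16.7% were higher and 34.6% lower, with a median of -0.10. After median-ratio scaling the list count was again 12, against 23.1% of all genes. *Tap1*, a subunit of the peptide transporter, had 34.2, 36.0 and 35.5 FPKM in controls and 107, 119 and 111 FPKM in CITED2-deficient libraries (log2 difference 1.65, limma adjusted p = 8.28e-09). *Tapbp*, which encodes tapasin and bridges TAP and the heavy chain, had a log2 fold change of 1.13 (limma adjusted p = 3.39e-09). Its relative *Tapbpl*, a peptide editor, had 1.10, and the immunoproteasome subunit *Psmb8* had 0.86. *Canx*, a chaperone of free heavy chains, was the gene that did not pass (-0.034, limma adjusted p = 0.446). A fold change of at least 2 was met by 3 of the 13 genes, against 3.72% of all genes tested.

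The regulators of class I transcription were divided. Of 16 genes, all tested, 5 were higher and 3 lower, against 16.7% higher and 34.6% lower among all genes tested, and the list median was 0.012. After median-ratio scaling 7 were higher and 2 lower, against 23.1% and 21.3% of all genes. The higher count was 6 after quantile normalization or with array weights. It was also 6 with a mean FPKM of at least 5 or without control replicate 2. Interferon factors were among the higher genes. *Stat2* had 60.4, 56.6 and 60.9 FPKM in controls and 244, 268 and 260 FPKM in CITED2-deficient libraries, the largest difference of the list (log2 difference 2.10, limma adjusted p = 1.45e-09). *Irf1* had a log2 fold change of 0.84, *Irf9* of 0.67 and *Irf2* of 0.33. Of the partners of NLRC5 on DNA (RFX, CREB1, ATF1 and NFY subunits) none was higher past the threshold, but *Atf1* (0.22) and *Nfya* (0.13) were after median-ratio scaling. Before that scaling *Atf1* missed the threshold narrowly (0.12, limma adjusted p = 0.0507). *Rfx5* did not pass (-0.080, 95% interval -0.24 to 0.079), and *Creb1* (-0.37) and *Rfxap* (-0.26) were lower past the threshold. The call of *Rfxap* was lost after median-ratio scaling (-0.16, limma adjusted p = 0.0853). *Ciita*, the related transactivator of class II, fell from 8.73 ± 1.12 to 5.15 ± 0.449 FPKM (SD, n = 3 each; log2 difference -0.66, limma adjusted p = 0.000592).

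Class II genes moved the other way. Of 9 listed, 6 were tested and all 6 were lower, with a median of -0.69, against 34.6% of all genes tested. All 6 were lower also after median-ratio scaling, against 21.3% of all genes. *H2-Ab1*, a class II beta chain, had 549, 553 and 531 FPKM in controls and 281, 326 and 334 FPKM in CITED2-deficient libraries (log2 difference -0.80, limma adjusted p = 4.76e-06). *H2-DMb1* (-0.71), *H2-Aa* (-0.69) and *H2-DMa* (-0.68) were also lower, and *H2-DMb2*, *H2-Oa* and *H2-Ob* were below the FPKM filter. The ratio of *H2-K1* to *H2-Ab1* FPKM was 2.56, 2.67 and 2.69 in controls and 10.1, 9.12 and 8.89 in CITED2-deficient libraries.

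Other class I and class I-like genes were called in both directions. Of 23 listed by name, 19 were in the matrix and 10 were tested, with 5 higher and 4 lower, against 16.7% and 34.6% of all genes tested. After median-ratio scaling 5 were higher and 2 lower, against 23.1% and 21.3%, so the lower count was near the share of all genes in both cases. *H2-T24* had 19.5, 19.0 and 20.5 FPKM in controls and 124, 128 and 123 FPKM in CITED2-deficient libraries, the largest difference of the list (log2 difference 2.61, limma adjusted p = 4.59e-10). *H2-Q5*, annotated as a polymorphic pseudogene, had 2.21, and *Procr*, the endothelial protein C receptor, had 1.04. *H2-T10*, the relative of *H2-T22* and also annotated as a polymorphic pseudogene, had 0.99 (3.07 FPKM in controls). *H2-M2* had 0.46, a call lost with the replicate block and without any 1 of 4 libraries (control replicates 1 and 2, CITED2-deficient replicates 1 and 2). *Fcgrt*, the heavy chain of the neonatal Fc receptor that also pairs with β2-microglobulin, had 221, 223 and 222 FPKM in controls and 89.1, 85.2 and 88.2 FPKM in CITED2-deficient libraries (log2 difference -1.33, limma adjusted p = 1.91e-09). *Hfe*, another partner of β2-microglobulin that restrains iron uptake, fell from 52.2 ± 1.94 to 27.3 ± 1.45 FPKM (SD, n = 3 each; log2 difference -0.91, limma adjusted p = 7.44e-07). The lipid-presenting *Cd1d1* (-0.33) and the NKG2D ligand *Ulbp1* (-0.34) were lower past the threshold, and both calls were lost after median-ratio scaling (limma adjusted p = 0.0653 and 0.0547). Each was also lost without CITED2-deficient replicate 3. The call of *Cd1d1* was lost without control replicate 2 and without the FPKM filter (limma adjusted p = 0.0589), and that of *Ulbp1* without control replicate 1 and after quantile normalization. *Mr1*, which shows vitamin B metabolites, did not pass (0.059). Below the FPKM filter were *H2-Bl*, *H2-M10.2*, *H2-M11*, *H2-M9*, *H2-Q1*, *H2-Q10*, *Raet1d*, *Raet1e* and *H60b*. Without the filter the NKG2D ligands *Raet1e* (1.16 FPKM in controls and 0.0992 FPKM in CITED2-deficient BMDMs, limma adjusted p = 0.000337) and *Raet1d* (limma adjusted p = 0.0490) were lower past the threshold, and 5 genes of the list were lower. The last list held *Pirb*, *Lilrb4a*, *Pilra*, *Pilrb1* and *Cd8a*, not all of which are established receptors for class I. It gave 0 higher and 1 lower of 4 tested, against 16.7% and 34.6% of all genes. Also at an unadjusted p under 0.05 and in limma-voom 0 were higher. *Lilrb4a* was higher after median-ratio scaling or without CITED2-deficient replicate 3. *Pirb*, an inhibitory receptor for class I, had a log2 fold change of -0.013. *Pilrb1* (-0.26) was the lower gene, a call lost without a filter, after either scaling, in limma-voom and when control replicate 2, control replicate 3, or replicate 1 or 3 of the other group was left out. *Cd8a* was below the filter.

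**Figure D4:**
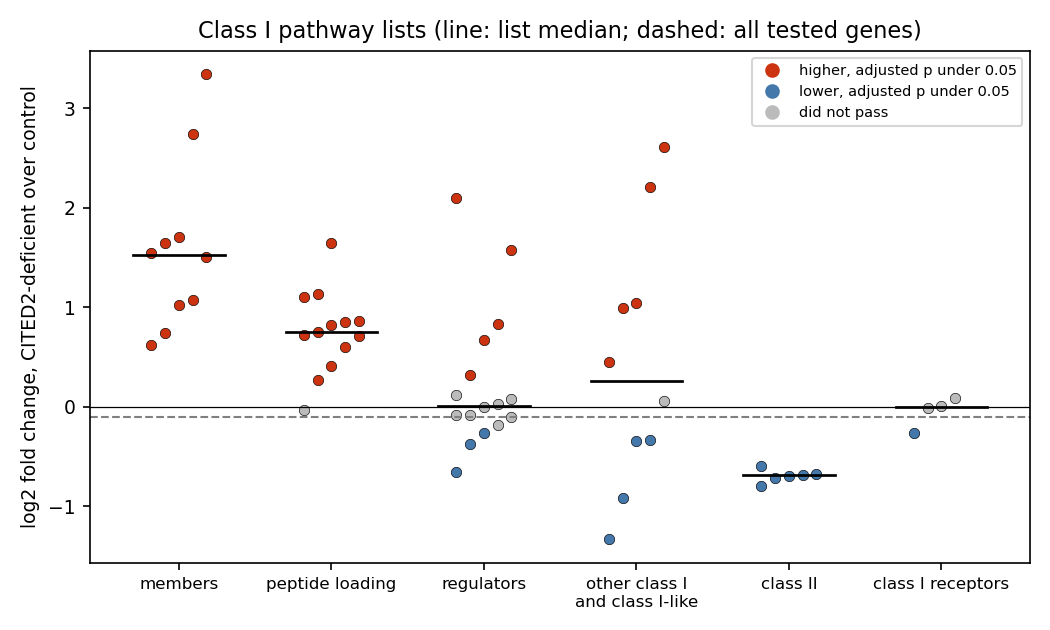
Log2 fold change of each tested gene in 6 lists, with red for higher and blue for lower past the threshold, gray for genes that did not pass, a line at each list median and a dashed line at the median of all tested genes. The 10 class I genes and 12 of 13 peptide loading genes lie above 0, while all 6 class II genes lie below 0. Not all genes under the label class I receptors are established receptors for class I.

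Along chromosome 17, class I genes that rose and class II genes that fell lay in the same stretch. From *H2-K1* to *H2-M3* (33996017 to 37274484, mm10) 91 genes were tested, and this reading was chosen after the values were seen. The 8 class I genes of the stretch and 3 other class I genes were higher, as were 4 peptide loading genes (*Tap1*, *Tap2*, *Psmb8* and *Psmb9*) that lie between the class II genes. All 5 class II genes of the stretch were lower. Of the other 71 genes, 11 were higher, 23 were lower and 37 did not pass, near the 16.7% higher and 34.6% lower of all genes tested, with a median log2 fold change of -0.038.

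**Figure D5:**
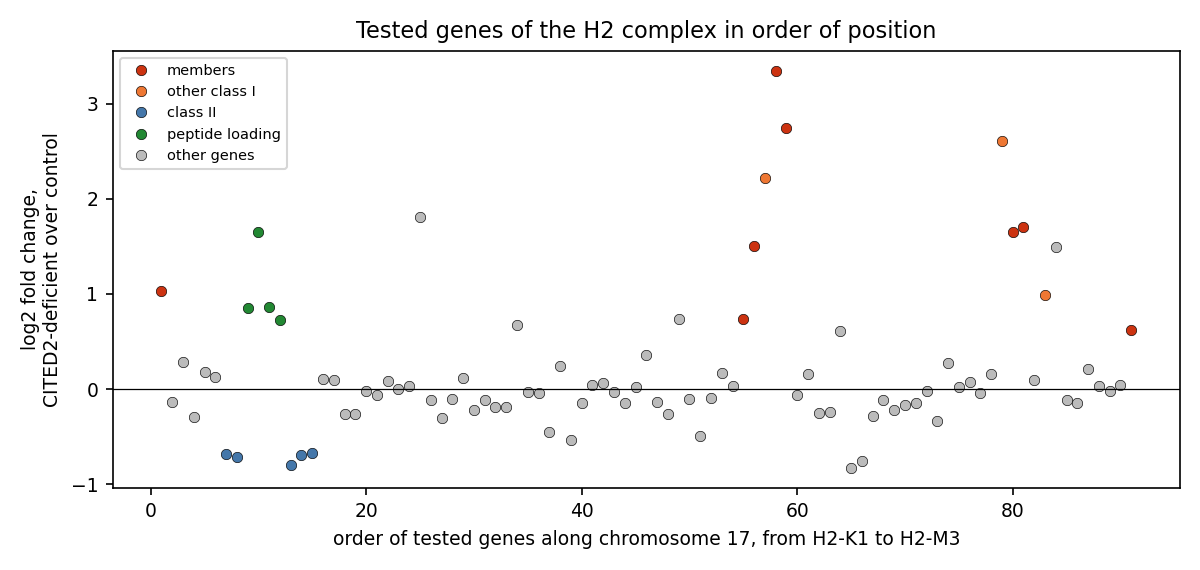
Log2 fold change of the 91 tested genes from *H2-K1* to *H2-M3* in order of position on chromosome 17, colored by kind. The class I genes from *H2-D1* to *H2-Q7* and around *H2-T23* stand above their neighbors, and the 5 class II genes stand below 0 on both sides of 4 peptide loading genes.

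The genes most like *H2-K1* and *Nlrc5* were sought by the root mean square difference of log2(FPKM + 1), centered on the control mean, over the 6 libraries. For *H2-K1* these included *Ccl4* (0.028), *Galnt7* (0.034), *Ms4a6d* (0.038) and *B2m* (0.041). For *Nlrc5* they were *Ms4a6b* (0.022), *Oas2* (0.036), *Cd274* (0.044), *Gm5431* (0.045) and *Parp9* (0.048). Their log2 fold changes lay between 0.99 and 1.07 for the first set and between 1.50 and 1.55 for the other. With libraries in 2 groups the measure turns mostly on that difference.

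Markers of other cells were read beside these results. Of 8 fibroblast or stromal markers, 7 were higher past the threshold, against 16.7% of all genes tested. Their summed level was 42.3 to 50.5 FPKM in control and 172 to 546 FPKM in CITED2-deficient libraries, highest in CITED2-deficient replicate 1. That library held the lowest value of the CITED2-deficient group for 9 of the 10 class I genes, all but *H2-D1*. Without it the log2 fold changes were 1.05 for *H2-K1*, 0.74 for *H2-D1*, 1.08 for *B2m* and 1.60 for *Nlrc5*. Every CITED2-deficient library exceeded every control in the stromal sum, so leaving out replicate 1 cannot separate the stromal from the class I difference. Endothelial markers (3 genes) summed to 5.73 to 6.01 FPKM in control and 26.9 to 32.3 FPKM in CITED2-deficient libraries, with *Kdr* and *Cdh5* higher. Of the 7 neutrophil lineage markers, 5 were lower, against 34.6% of all genes tested, and the sums were 635 to 703 and 496 to 592 FPKM. All 5 T cell markers and all 4 NK cell markers were under 1 FPKM in every library, as were 5 of 6 dendritic cell markers. Dendritic cell markers summed to 0.867 to 1.23 FPKM in control and 2.28 to 2.43 FPKM in CITED2-deficient libraries. T cell markers summed to 0.185 to 0.617 and 0.679 to 1.25 FPKM, and NK cell markers to 0.0391 to 0.254 and 0.130 to 0.344 FPKM. B cell markers (5 genes) summed to 2.14 to 3.29 and 2.07 to 2.82 FPKM, mast cell or basophil markers (4 genes) to 2.38 to 2.87 and 1.39 to 1.80 FPKM, and erythroid markers (2 genes listed) to at most 1.12 FPKM. The part of stromal, endothelial and other cells in the class I result was not tested.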

How the data were processed

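Total RNA of resting BMDMs was depleted of ribosomal RNA and sequenced, 3 libraries per genotype. Per the labels and methods, the authors aligned reads with STAR to mm10 and made the deposited FPKM with Cufflinks and Cuffdiff on GENCODE. Versions and settings: not given in the sources used here. FPKM follow library composition, and relatives of a gene can share fragments.

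The linear model of limma 3.58.1 (R 4.3.3, variance trend) was fitted to log2(FPKM + 1) where mean FPKM reached 1, Benjamini-Hochberg adjustment over 11687 genes, two-sided, threshold 0.05. The pseudocount of 1 understates changes of low genes. Ratios were compared with an exact permutation test (SciPy 1.17.1). Whole fragments were recovered from FPKM by transcript length (96.1% of 22220 matched genes came out whole in all 6 libraries, tolerance 0.02) for depth and limma-voom. The fit was tested on simulated data where few genes changed and all of them rose, which differs from these data.

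Members and lists were chosen with earlier results of these data known. Named were all members, *Cited2*, *Irf1*, *Irf2*, *Rfx5*, *Ciita*, the 4 genes of each list with the largest change past the threshold, list genes below the filter and the 5 genes most like *H2-K1* and *Nlrc5*. Other names were chosen after their values were seen, and some genes that the rule names are not reported here. Alternatives changed the pseudocount, filter, scaling, variance model, weights, replicate block, model and libraries.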

Additional observations from a re-analysis of the deposited data

How the results depend on the processing

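All 10 class I genes kept their direction and their side of the threshold under each of 16 alternatives (160 of 160 results), with a largest adjusted p of 0.000581 in limma, and *Cited2* did so too. Over all genes, 1950 were higher and 4044 lower. Median-ratio scaling gave 2696 higher and 2490 lower, which moved the share of calls that were higher from 32.5% to 52.0% and the median log2 fold change from -0.10 to -0.0069. With the replicate block, 1895 were higher and 3813 lower, and the block left all 10 class I genes called. Same-numbered libraries correlated by 0.00784 to 0.0402 in their deviations, and the other pairs by -0.0521 to 0.0354. These values cannot exclude a shared batch or pairing, on which the labels say nothing.

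With a fold change of at least 2 required, counts fell by construction to 3 higher for peptide loading, 2 higher and 0 lower for regulators, 3 higher and 1 lower for other class I genes, and 0 lower for class II. Of all genes tested 3.72% were higher by this measure, and the share that was lower was not counted. Other class I genes lower numbered 2 after median-ratio scaling, 3 after quantile normalization, 5 without a filter and 2 to 4 when each library was left out in turn. Classical minus nonclassical was -1.04, and became -1.10 with a pseudocount of 0.1, -1.08 with 0.5, -1.14 after quantile normalization and -1.11 in limma-voom. It was -0.49 over *H2-Q4*, *H2-T22*, *H2-T23* and *H2-M3* (chosen after seeing the data) and -1.06 to -1.02 when each library was left out. The cause was not tested.

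With 3 libraries a group no exact test can give a p below 0.1, and groups of 3 were not searched for outlying libraries. Depth was 1.34 times higher in CITED2-deficient libraries, and *H2-Q6* in controls rests on at most 185 fragments a library.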
